A study of Mus musculus with 2 samples.

Results

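Spi1, Cebpa, Cebpb, Cebpd, Cebpe, Irf8, Klf4 and Nr4a1 are 8 transcription factor genes that steer the fate of myeloid cells. They were taken as a named list of genes. All 8 were found by symbol among the 33696 genes counted in single cells of mouse lung, under the identifiers ENSMUSG00000002111 (Spi1), ENSMUSG00000034957 (Cebpa), ENSMUSG00000056501 (Cebpb), ENSMUSG00000071637 (Cebpd), ENSMUSG00000052435 (Cebpe), ENSMUSG00000041515 (Irf8), ENSMUSG00000003032 (Klf4) and ENSMUSG00000023034 (Nr4a1). Their unique molecular identifiers (UMIs, each standing for a captured RNA molecule) were compared across neutrophils, monocytes, macrophages and dendritic cells, and between a library labelled GFI1 KO and a library labelled WT.

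As background, Spi1 encodes PU.1, an Ets-family factor that myeloid cells and B cells need, and that is held at high levels in macrophages. The C/EBP genes act along the granulocyte path and beyond it: C/EBPα in granulocyte and monocyte progenitors, C/EBPβ in granulocyte production under stress and in monocytes and macrophages, C/EBPδ in inflammatory responses, and C/EBPε in the late granulocyte stages at which secondary granule genes are switched on. IRF8 favours monocytes, type 1 conventional dendritic cells and plasmacytoid dendritic cells over granulocytes. KLF4 and NR4A1 act in monocytes; nonclassical monocytes, which patrol vessels, depend on NR4A1, and both genes are also induced early after a stimulus in many cell types. GFI1 is a zinc-finger repressor that neutrophils need in order to mature, and mice without it are known to lack mature neutrophils and to accumulate immature monocytic cells.

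The study asked how lung cells differ between mice with and without GFI1. The GFI1 KO mice carried a germline knockout and the WT mice (genotype label GFI1 WT) did not; both were adults, 5 to 8 weeks old by the study's methods, on the C57BL6/J background, without further treatment named in the labels. Live cells were sorted from perfused, enzymatically digested whole lung and run with a 3′ droplet assay. The titles name a single mouse for each label, and 1 library per label was analysed here, although the methods state 2 samples per genotype. Genotype, mouse and library therefore cannot be told apart, no test or spread between mice was possible, and ranges in parentheses are 95% intervals that cover counting error only. The GFI1 KO library held 10700 cells and 116825535 gene UMIs, with a median of 11076 UMIs in the 10495 cells kept, and the WT library 19515 cells and 162599284 gene UMIs, with a median of 6217 in the 19342 kept. Levels are given in CPM, the UMIs of a gene per 1000000 UMIs of the 24148 genes used. The targeted gene Gfi1 had 340 UMIs (3.6 CPM) in the GFI1 KO library and 470 UMIs (3.47 CPM) in the WT library, so its RNA did not separate the labels; where on the gene these 3′ tags fell relative to the deletion is not known. The libraries shared 74 cell barcodes, and without those cells all 51 ratios of the 8 genes between labels moved by less than their intervals.

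Cells were grouped with the 8 genes kept out of the clustering, and 11 myeloid classes were named from marker genes, with 7685 cells in the GFI1 KO library and 6882 in the WT library. The labels differed most in the granulocyte and classical monocyte classes. Neutrophils, with all 10 of their markers raised, numbered 9 in the GFI1 KO library and 1421 in the WT library. They numbered 173 and 722 with each library clustered on its own, and 54 and 1700 with cells classed by marker level. The 9 cells were unlike the 1421: their median was 7 UMIs of the Ly6G antibody tag against 243, and the secondary granule genes Camp and Ngp stood at 2251 and 7018 CPM against 23.9 and 40.8 CPM. A cluster led by granule genes (Lcn2, Prtn3, Elane, Mmp8 and Fcnb) had 1691 cells in the GFI1 KO library and 5 in the WT library. The classical monocyte markers Ly6a2, Vcan, F13a1 and Ly6c2 were also among its leading genes. It is called granule-gene-led here and given no cell type, because 8 of 9 classical monocyte markers and 6 of 12 granule markers were raised in it and its median Ly6G tag count was 1. Classical monocytes numbered 2792 and 273, and nonclassical monocytes 687 and 492. Different clusters made up most of the classical monocytes: a cluster led by the acute-phase gene Saa3 held 2361 of the 2792 cells under the GFI1 KO label, and a cluster led by the interferon-induced Ifit genes held 198 of the 273 under the WT label. The classical marker Ly6c2 stood at 572 and 1713 CPM in the class, and the summed 9 classical markers at 9378 and 11495 CPM, with 4861 and 3563 CPM in nonclassical monocytes. Alveolar macrophages numbered 2302 and 3865, and their cycling counterparts 65 and 57. Interstitial macrophages (21 and 152), Cd209a-positive cells with high major histocompatibility complex class II genes (called Cd209a MHC-II-high, 47 and 211), type 1 conventional dendritic cells (48 and 174), migratory dendritic cells (10 and 104) and plasmacytoid dendritic cells (13 and 128) were fewer under the GFI1 KO label. Ratios between labels are given for the 7 classes with at least 20 cells under each label, and values stand side by side for the others.

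Klf4 and Nr4a1 were the genes of the 8 whose levels among the myeloid classes peaked in nonclassical monocytes under both labels, and the 250 bases before their starts are shown for that reason. They come from RefSeq on GRCm38.p6, an older build than the GRCm39 that the submitters' processing notes name, so no count rests on these positions. The window of Nr4a1 is chr15:101266596-101266845 on the plus strand and that of Klf4 is chr4:55532476-55532725 on the minus strand. Each is written 5′ to 3′ on the gene's own strand, and capitals mark TGACG, the core of the cyclic AMP response element read by CREB-family factors, here always as its reverse complement CGTCA.
Nr4a1: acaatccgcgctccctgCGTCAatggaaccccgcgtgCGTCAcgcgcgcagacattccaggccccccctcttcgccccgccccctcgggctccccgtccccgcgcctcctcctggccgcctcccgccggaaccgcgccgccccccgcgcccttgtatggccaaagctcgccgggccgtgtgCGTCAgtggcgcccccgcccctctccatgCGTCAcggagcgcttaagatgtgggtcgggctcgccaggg
Klf4: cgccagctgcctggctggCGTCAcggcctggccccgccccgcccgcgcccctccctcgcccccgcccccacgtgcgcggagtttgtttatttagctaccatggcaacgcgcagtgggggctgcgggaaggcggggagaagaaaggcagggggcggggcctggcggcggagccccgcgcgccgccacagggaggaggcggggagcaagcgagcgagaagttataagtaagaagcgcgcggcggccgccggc
Nr4a1 held 4 matches, at 228, 208, 64 and 35 bases before the start, and Klf4 held 1, at 227 bases. Cebpb held 3, and Cebpa and Irf8 (both of its listed starts) held none. Of 32851 promoter windows of the same length, 17.8% held at least 1 match on either strand and 0.137% held at least 4. The whole element TGACGTCA was in none of the 5 genes' windows and in 1.55% of all. AAATCA, the core letters of the sequence GFI1 binds, was found in the windows of Irf8 alone, 1 match at each start, and in 12.4% of all windows. Spi1, Cebpd and Cebpe had no entry. A match describes the letters only.

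**Figure D1:**
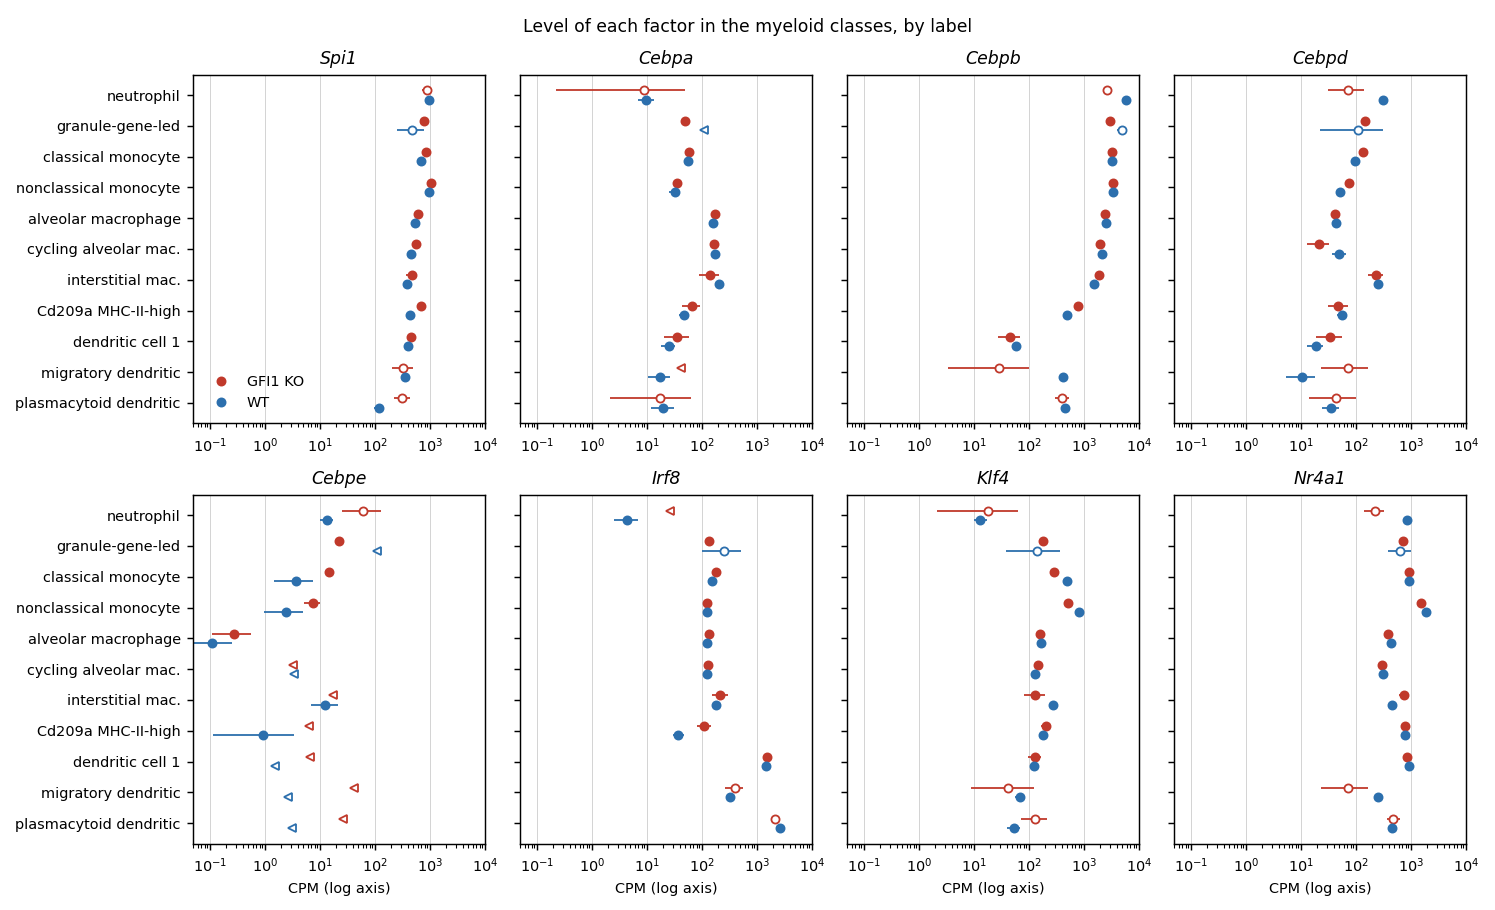
Level of each of the 8 genes (CPM, log axis) in the 11 myeloid classes, red for the GFI1 KO library and blue for the WT library; bars are 95% counting intervals, open circles are classes with under 20 cells, and open triangles mark the limit that 3 counts allow where no UMI was seen. Irf8 is highest in dendritic cells, and Klf4 and Nr4a1 are highest in nonclassical monocytes among these classes.

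Over all cells, Cebpe had the largest ratio between the libraries. It had 974 UMIs in the GFI1 KO library and 109 in the WT library, 10.3 against 0.804 CPM with a ratio of 12.8 (10.5 to 15.8). Spi1 stood at 680.0 against 345 CPM with a ratio of 1.97 (1.95 to 2.0), Cebpb at 2569 against 1581 CPM with a ratio of 1.63 (1.62 to 1.63) and Nr4a1 at 681 against 450.2 CPM with a ratio of 1.51 (1.5 to 1.53). Irf8 was lower over the GFI1 KO library as a whole, at 177 against 274 CPM with a ratio of 0.645 (0.633 to 0.657), and so was Cebpd, at 92.0 against 120.4 CPM with a ratio of 0.764 (0.745 to 0.785). Cebpa and Klf4 differed least, at 84.1 against 74.5 CPM with a ratio of 1.13 (1.10 to 1.16) for Cebpa and 214 against 229 CPM with a ratio of 0.931 (0.915 to 0.948) for Klf4. These sums mix cell types: in the WT library 41.8% of the Irf8 UMIs lay in natural killer (NK) cells, and 37.0% of the Cebpd UMIs and 31.2% of the Klf4 UMIs lay in endothelial cells, whereas in the GFI1 KO library classical monocytes and granule-gene-led cells together with alveolar macrophages held most UMIs of every one of the 8 genes. The comparisons that follow are therefore within classes.

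**Figure D2:**
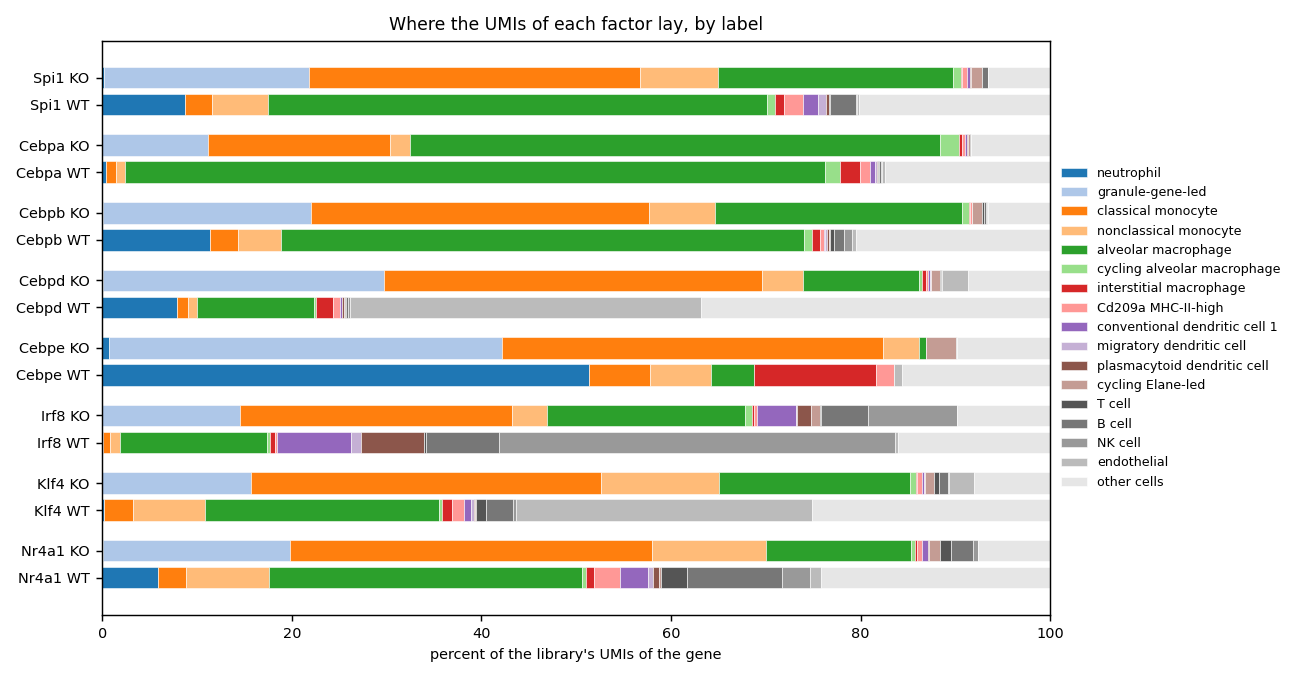
Percent of each library's UMIs of each gene that lay in each class, 1 bar per gene and label. In the GFI1 KO library classical monocytes and granule-gene-led cells hold 40.1% and 41.5% of the Cebpe UMIs, while in the WT library neutrophils hold 51.4%.

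Within classes, few of the 8 genes differed by 2-fold between the labels. A gene was called where its level differed at least 2-fold and it had at least 30 UMIs in the class over both libraries. In classical monocytes 1 of 8 genes was called, Cebpe, higher under the GFI1 KO label, beside 11.3% of all 10802 genes. In nonclassical monocytes it was again 1 of 8, Cebpe, beside 4.38% of 9238 genes. Alveolar macrophages had 0 of 7 beside 4.88% of 12407 genes, and cycling alveolar macrophages 1 of 7, Cebpd, lower, beside 2.12% of 7347. Interstitial macrophages had 1 of 7, Klf4, lower, beside 15.8% of 6288 genes. Cd209a MHC-II-high cells had 1 of 7, Irf8, higher, beside 11.0% of 7849, and type 1 conventional dendritic cells 0 of 7 beside 6.56% of 7550. With 7 or 8 genes counted, 1 call is the smallest step above none, so these counts are not read as a result about the list and the genes are described singly. Cebpe had under 30 UMIs in 5 of the 7 classes and was not counted there. The median log2 ratio of all genes counted lay between -0.13 and 0.07 in the 7 classes.

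**Figure D3:**
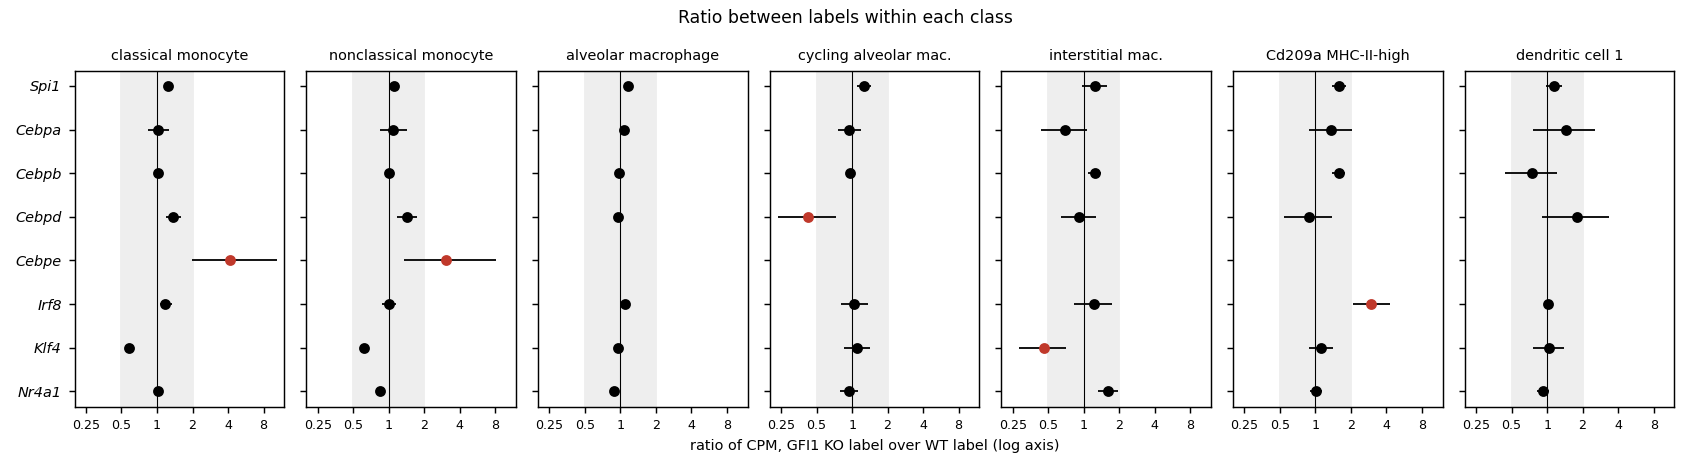
Ratio of CPM, GFI1 KO label over WT label (log axis), for each gene with at least 30 UMIs in each of the 7 classes compared; bars are 95% counting intervals, the grey band spans less than 2-fold, and red points lie outside it. Cebpe lies at 4.12 and 3.08 in classical and nonclassical monocytes, and Klf4 at 0.579 and 0.618.

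Spi1, the gene of PU.1, was present in all 11 myeloid classes. Under the WT label it was highest in neutrophils, at 972 CPM (942 to 1002), and nonclassical monocytes, at 953 CPM (917 to 989), whose intervals overlapped, followed by classical monocytes at 685 CPM and alveolar macrophages at 527 CPM. Plasmacytoid dendritic cells were lowest, at 118 CPM (97.0 to 142). From cycling alveolar macrophages down to migratory dendritic cells, neighbours in the order had overlapping intervals. Under the GFI1 KO label nonclassical monocytes led at 1067 CPM (1038 to 1096), then classical monocytes at 856 CPM and granule-gene-led cells at 783 CPM. The level was higher under the GFI1 KO label in all 7 classes compared, by a small amount: 1.25 (1.18 to 1.32) in classical and 1.12 (1.07 to 1.17) in nonclassical monocytes, 1.17 (1.15 to 1.19) in alveolar and 1.27 (1.11 to 1.45) in cycling alveolar macrophages, 1.24 (0.963 to 1.58) in interstitial macrophages and 1.15 (0.978 to 1.34) in type 1 conventional dendritic cells. The last 2 intervals include 1. Cd209a MHC-II-high cells had the largest ratio, 1.59 (1.39 to 1.80), with 677 against 426 CPM. Different clusters held most of that class under the labels, and in the cluster led by Cd7, with 33 of 47 and 46 of 211 cells, Spi1 had 1.28 (1.07 to 1.53). T cells read 9.39 CPM (5.81 to 14.3) and 4.49 CPM (3.21 to 6.12), so the level there was also higher under the GFI1 KO label, 2.09 (1.17 to 3.63), far below the monocyte levels. B cells, at 128 and 100.1 CPM, had 1.28 (1.14 to 1.44), and NK cells, at 28.4 and 7.0 CPM, had 4.05 (2.49 to 6.47). Endothelial cells had 2.0 (0.784 to 4.29) from 7 and 95 UMIs. The direction of the reading was therefore not particular to the myeloid classes. T cells held 21 and 40 Spi1 UMIs and NK cells 29 and 55 under the GFI1 KO and WT labels. The part of free RNA from other cells in these low counts was not tested.

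Cebpa, which acts in granulocyte and monocyte progenitors, was highest in macrophages among the myeloid classes. Under the WT label interstitial macrophages had 200.4 CPM (175 to 229), cycling alveolar macrophages 176 CPM and alveolar macrophages 159.6 CPM (156 to 163), with overlapping intervals between neighbours, and classical monocytes followed at 56.9 CPM. Neutrophils were lowest at 9.78 CPM (7.02 to 13.3). Under the GFI1 KO label the order began with alveolar macrophages, at 172 CPM (167 to 177), and granule-gene-led cells stood at 49.9 CPM (46.7 to 53.3), near classical monocytes at 58.2 CPM (55.3 to 61.2). Between labels the ratio in classical monocytes was 1.02 (0.842 to 1.25), in nonclassical monocytes 1.09 (0.840 to 1.42) and in alveolar macrophages 1.08 (1.04 to 1.12), the latter being the only 1 of the 7 whose interval did not include 1. Interstitial macrophages had 0.698 (0.438 to 1.07), from 24 UMIs under the GFI1 KO label.

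Cebpb was high in neutrophils, monocytes and macrophages and low in dendritic cells. The highest level was in WT-labelled neutrophils, 5799 CPM (5726 to 5872), and the 9 cells of that cluster under the GFI1 KO label stood at 2623 CPM (2333 to 2939). Classical monocytes had 3305 CPM (3283 to 3327) in the GFI1 KO library and 3227 CPM (3148 to 3308) in the WT library, and nonclassical monocytes 3397 and 3358 CPM. Granule-gene-led cells, at 2988 CPM (2963 to 3014), lay between monocytes and alveolar macrophages. Type 1 conventional dendritic cells were near the bottom with 44.4 and 59.4 CPM, under the level of T cells (200.2 and 116 CPM), and migratory dendritic cells held 422 CPM under the WT label. Between labels Cebpb differed little in monocytes, 1.02 (0.998 to 1.05) and 1.01 (0.986 to 1.04). In alveolar macrophages it was slightly lower under the GFI1 KO label, 0.967 (0.958 to 0.976), where the large counts gave a narrow interval. It was higher under the GFI1 KO label in interstitial macrophages, 1.24 (1.09 to 1.39), and in Cd209a MHC-II-high cells, 1.57 (1.39 to 1.77). The latter differed by cluster, 1.40 (1.17 to 1.67) in the Cd7-led, 2.83 (1.80 to 4.27) in the Mgl2-led and 0.275 (0.109 to 0.578) in the Retnla-led cluster, and was 1.09 with mitochondrial UMIs of up to 10% or at resolution 0.5. The Mgl2-led and Retnla-led clusters each held at most 6 cells under the GFI1 KO label. Mgl2 was among the leading genes of several clusters of this class. In a small cluster of these, with 2 GFI1 KO and 14 WT cells, 43.8% of cells were called doublets.

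Cebpd, an inflammation-induced C/EBP gene, was highest in WT-labelled neutrophils, 308 CPM (292 to 326), and in interstitial macrophages, 233 CPM (167 to 318) in the GFI1 KO library and 256 CPM (227 to 288) in the WT library. Within interstitial macrophages most of it lay in a cluster led by Pf4, C1qa and Folr2, at 338 and 429 CPM. Granule-gene-led cells had 145 CPM (139 to 150.3), above classical monocytes at 133 CPM (128 to 137) under the same label. Between labels it was higher under the GFI1 KO label in both monocyte classes, 1.38 (1.19 to 1.60) in classical monocytes (133 against 96.3 CPM) and 1.44 (1.19 to 1.75) in nonclassical monocytes (74.6 against 51.8 CPM). The classical value rests on the clustering: in the cluster led by the interferon-induced Ifit genes it was 1.75 (1.44 to 2.14), in the cluster led by Saa3 1.15 (0.884 to 1.53), and at a clustering resolution of 0.5 the class read 0.96. In cycling alveolar macrophages the ratio was 0.424 (0.237 to 0.735), from 20 and 44 UMIs, while non-cycling alveolar macrophages had 0.964 (0.894 to 1.04). At a resolution of 1.2, with 113 and 194 cells in the cycling class, its ratio was 0.963. Endothelial cells, at 600.0 and 554 CPM, had a higher Cebpd level than any myeloid class.

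Cebpe, the late granulocyte factor, had the largest ratios between the labels of the 8 genes. Under the WT label 51.4% of its UMIs lay in neutrophils, at 13.4 CPM (10.1 to 17.4) from 56 UMIs in 53 of 1421 cells. Under the GFI1 KO label granule-gene-led cells held 41.5% of the UMIs, at 22.7 CPM (20.5 to 25.0) from 404 UMIs in 307 cells, and classical monocytes 40.1%, at 14.9 CPM (13.5 to 16.5) from 391 UMIs in 312 cells. The 5 WT-labelled granule-gene-led cells had no Cebpe UMI, which allows a level of up to 107 CPM from 3 counts and so says little. The 9 neutrophil-cluster cells of the GFI1 KO library had 7 UMIs in 4 cells, 62.0 CPM (24.9 to 128). A cycling cluster led by Elane, kept apart from the classes, had 30.5 CPM (20.7 to 43.3) in 59 cells under the GFI1 KO label, and its Prtn3 level was 597 CPM. The 8 cells under the WT label had no Cebpe UMI among 61521 UMIs, which says little. These 8 were unlike the 59, with summed T cell markers at 3901 against 360 CPM and summed granule markers at 439 against 2738 CPM. Of the cluster, 16.9% of the GFI1 KO cells and 25% of the WT cells were called doublets. Within the GFI1 KO library the order ran from granule-gene-led cells over classical to nonclassical monocytes, with no overlap of intervals between these 3.

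In classical monocytes Cebpe stood at 14.9 CPM (13.5 to 16.5) in the GFI1 KO library and 3.62 CPM (1.46 to 7.47) in the WT library, a ratio of 4.12 (1.98 to 10.3) that rests on 7 UMIs in 7 WT-labelled cells. It was as large in both clusters of the class, 3.76 (1.03 to 31.1) in the Saa3-led and 4.13 (1.65 to 13.3) in the Ifit-led cluster. In nonclassical monocytes it was 7.44 CPM (5.24 to 10.3) in the GFI1 KO library and 2.42 CPM (0.972 to 4.98) in the WT library, a ratio of 3.08 (1.35 to 8.18) from 37 and 7 UMIs; with the 8 genes and related factors allowed into the clustering the gene had under 30 UMIs there and was not called. Granule genes were higher under the same label in these classes, past 2-fold in 6 of the 10 counted in classical monocytes beside 11.3% of all genes, and 4 of the 7 counted in nonclassical monocytes beside 4.38%, with none lower. The sum of all 16 granule genes on the list had a ratio of 1.13 (1.12 to 1.14) in classical and 1.37 (1.36 to 1.39) in nonclassical monocytes, and of 1.53 (1.39 to 1.68) in T cells, 2.22 (2.0 to 2.45) in NK cells and 2.81 (2.45 to 3.22) in endothelial cells. That list adds Chil3, Itgb2l, Lyz2 and Cybb to the 12 granule markers used to name clusters. Its sum in classical monocytes was 29472 CPM in the GFI1 KO library and 26121 CPM in the WT library. The 12 markers alone summed to 5.81 and 2.36 CPM in T cells, 7.83 and 1.91 CPM in NK cells and 4.98 and 4.31 CPM in endothelial cells. Lcn2, a secondary granule gene that monocytes can also induce, read 231 against 5.69 CPM, ratio 40.6 (22.7 to 81.3) in classical monocytes and had 204 and 2 UMIs in nonclassical monocytes. Prtn3, a primary granule protease, read 148 and 20.2 CPM in classical and 24.5 and 2.07 CPM in nonclassical monocytes, and the 12 granule markers used to name clusters summed to 691 and 240.2 CPM in classical and 128 and 23.5 CPM in nonclassical monocytes under the GFI1 KO and WT labels. Their part in the Cebpe result was not tested. Camp, Ngp and Ltf, other secondary granule genes, were at most 1.18 CPM in granule-gene-led cells and 0.802 CPM in classical monocytes under the GFI1 KO label. Other cells of the GFI1 KO library were read for free RNA. Its 530 T cells held no Cebpe UMI, which allows up to 1.34 CPM, and its 951 B cells and 114 endothelial cells held none. Its 218 NK cells held 1, 0.979 CPM, and its 2302 alveolar macrophages held 7, 0.271 CPM (0.109 to 0.559). The part of free RNA in the Cebpe levels was not tested. In the WT library 14 Cebpe UMIs fell in 2 cells named interstitial macrophage, 13 of them in a cluster led by Camp and Ngp, and in the GFI1 KO library 58 UMIs fell in 1 cycling cell that also held 1642 UMIs of Prg2, an eosinophil granule gene.

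Among the myeloid classes Irf8 was highest in plasmacytoid, type 1 conventional and migratory dendritic cells under both labels. Clusters of the Cd209a MHC-II-high class raised 7 to 9 of 10 type 2 conventional dendritic cell markers. That class held 111 and 37.3 CPM under the GFI1 KO and WT labels, below both monocyte classes. Plasmacytoid dendritic cells had the highest level, 2608 CPM (2507 to 2712) under the WT label and 2099 CPM (1842 to 2381) in the 13 cells under the GFI1 KO label, followed by type 1 conventional dendritic cells at 1513 CPM (1402 to 1631) in the GFI1 KO library and 1487 CPM (1433 to 1543) in the WT library and migratory dendritic cells at 395 and 329 CPM. Interstitial macrophages, classical and nonclassical monocytes and both alveolar macrophage classes lay together between 124 and 177 CPM under the WT label. Neutrophils were lowest, at 4.29 CPM (2.55 to 6.79), with no UMI in the 9 cells under the GFI1 KO label. Granule-gene-led cells held 136 CPM (131 to 142) in 1155 of 1691 cells, below classical monocytes of the same library at 183 CPM (178 to 189) and above WT-labelled neutrophils. The cycling Elane-led cells held 149.5 CPM (127 to 175).

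Between labels Irf8 was level in type 1 conventional dendritic cells, 1.02 (0.934 to 1.11), and in nonclassical monocytes, 1.01 (0.883 to 1.15). It was slightly higher under the GFI1 KO label in classical monocytes, 1.18 (1.05 to 1.33), and alveolar macrophages, 1.09 (1.04 to 1.14). In Cd209a MHC-II-high cells it was 111 CPM (83.2 to 145) in the GFI1 KO library and 37.3 CPM (29.6 to 46.4) in the WT library, a ratio of 2.98 (2.06 to 4.26) from 53 and 81 UMIs. The class was made up of different clusters under the labels. A cluster led by Cd7 and Klrd1 held 33 of the 47 cells of the GFI1 KO library and 46 of the 211 of the WT library, and there Irf8 read 139 and 115 CPM, a ratio of 1.2 (0.783 to 1.85). The largest cluster under the WT label, led by Cd209a and Mgl2 with 6 and 106 cells, read 20.5 and 5.78 CPM, a ratio of 3.55 (0.0772 to 29.3) from 1 and 6 UMIs. The summed 9 classical monocyte markers in the class were 3182 and 1301 CPM and the summed 8 plasmacytoid dendritic cell markers 490.2 and 167 CPM, and their part in the ratio was not tested. At a clustering resolution of 1.2, with 39 and 173 cells in the class, the ratio was under 2. It was 1.44 when cells were clustered again without called doublets. That run made a larger class, of 158 and 410 cells, whereas the class of 47 and 211 cells held 1 and 7 called doublets. The part of doublets in the ratio therefore cannot be read from it. Outside the myeloid classes NK cells held 1528 and 1975 CPM, a ratio of 0.774 (0.734 to 0.815), and B cells 269 and 224 CPM.

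Klf4, a Krüppel-like factor of monocytes, was highest in nonclassical monocytes and next in classical monocytes among the myeloid classes under both labels. It stood at 507 CPM (488 to 527) in the GFI1 KO library and 820.3 CPM (788 to 854) in the WT library in nonclassical monocytes, and at 284 CPM (278 to 291) in the GFI1 KO library and 491 CPM (460.0 to 523) in the WT library in classical monocytes. Granule-gene-led cells had 178 CPM (172 to 185), below both, and WT-labelled neutrophils were lowest at 13.1 CPM (9.89 to 17.1). The GFI1 KO label was the lower in both monocyte classes, with ratios of 0.618 (0.584 to 0.654) and 0.579 (0.541 to 0.620). Neither passed 2-fold, but the nonclassical ratio lay between 0.58 and 0.65 under all 11 alternatives and the classical ratio between 0.46 and 0.74 under 14, past 2-fold under 7 of them. In the Ifit-led cluster of classical monocytes it was 0.50 (0.453 to 0.552) and in the Saa3-led cluster 0.744 (0.645 to 0.863). Of the nonclassical markers, Treml4 read 449 and 495 CPM, and the summed 8 markers 4269.6 and 5433 CPM. Among the myeloid classes and the T, B, NK and endothelial cells, endothelial cells had the highest Klf4 level, 1322 and 889.7 CPM. The higher value lay under the GFI1 KO label. Other cell types were not compared. The summed 8 endothelial markers in nonclassical monocytes were 277 and 399 CPM, against 13209 and 12534 CPM in endothelial cells. The part of endothelial RNA in the Klf4 result was not tested.

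In the other classes Klf4 was level or its direction was mixed. Alveolar macrophages had 157 CPM (152 to 162) in the GFI1 KO library and 164 CPM (160.2 to 168) in the WT library, a ratio of 0.957 (0.921 to 0.994) that hid unlike clusters: 0.969 (0.925 to 1.01) in the largest, led by Nrg4, 1.30 (1.17 to 1.44) in that led by Txnip, and 0.765 (0.691 to 0.846) in that led by Fbp1 and Mmp12. Cycling alveolar macrophages, Cd209a MHC-II-high cells and type 1 conventional dendritic cells had ratios of 1.10 (0.854 to 1.43), 1.12 (0.891 to 1.40) and 1.04 (0.767 to 1.39), all with 1 in the interval. Interstitial macrophages had 128 CPM (80.4 to 194) in the GFI1 KO library and 278 CPM (248 to 311) in the WT library, a ratio of 0.461 (0.285 to 0.711), from 22 UMIs in 21 cells under the GFI1 KO label. That call did not hold across clusters or settings. The Pf4-led cluster, with 10 and 79 cells under the GFI1 KO and WT labels, had 0.184 (0.0733 to 0.386). The Camp-led cluster, with 7 and 59 cells, had 3.29 (1.35 to 7.29). With cells classed by marker level the direction turned to 1.22. The GFI1 KO and WT cells of this class also differed in markers of other cells. The summed 10 neutrophil markers were 239 and 4922 CPM, the summed 12 granule markers 111 and 2303 CPM, and Marco, an alveolar macrophage marker, stood at 1977 and 65.0 CPM. Their part in the Klf4 and Nr4a1 ratios was not tested.

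Nr4a1, which nonclassical monocytes need and which is also an immediate-early gene, had its highest level among the myeloid classes in those cells: 1550.3 CPM (1516 to 1585) in the GFI1 KO library and 1850.3 CPM (1801 to 1901) in the WT library. Next under the WT label came type 1 conventional dendritic cells (936 CPM), classical monocytes (913 CPM) and neutrophils (857 CPM), with overlapping intervals between neighbours only. Alveolar macrophages had 381 and 431 CPM, and granule-gene-led cells 715 CPM (703 to 728). The ratio between labels was 0.838 (0.809 to 0.868) in nonclassical monocytes, 1.03 (0.980 to 1.08) in classical monocytes and 0.884 (0.863 to 0.906) in alveolar macrophages. The last 2 differed by cluster: classical monocytes gave 0.751 (0.694 to 0.814) in the Saa3-led and 1.11 (1.03 to 1.19) in the Ifit-led cluster, and alveolar macrophages 0.852 (0.830 to 0.875) in the Nrg4-led, 1.41 (1.26 to 1.58) in the Txnip-led and 1.23 (1.15 to 1.31) in the Fbp1-led cluster. Interstitial macrophages were higher under the GFI1 KO label, 1.61 (1.32 to 1.97), with 741 against 459 CPM. Within type 1 conventional dendritic cells the level ranged from 1437 and 1668 CPM in a cluster led by Timd4 and Pcdh7 to 14.3 and 75.0 CPM in a cluster led by Itgae and Septin3, under the GFI1 KO and WT labels.

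Klf4 and Nr4a1 are often induced together with other immediate-early genes, and were read beside 12 of them (Fos, Fosb, Jun, Junb, Jund, Egr1, Atf3, Ier2, Ier3, Dusp1, Zfp36 and Btg2). The ratio of their summed level between labels was 0.959 (0.945 to 0.973) in classical and 1.03 (1.01 to 1.04) in nonclassical monocytes. The classical value pools clusters that ran in opposite directions: the sum was 9808 and 13995.5 CPM in the Saa3-led cluster, which held most of the GFI1 KO cells and where Klf4 and Nr4a1 were lower too, and 10124 and 8962 CPM in the Ifit-led cluster, where Klf4 was lower. The part of these genes in the Klf4 and Nr4a1 ratios was not tested. It was 0.943 (0.937 to 0.95) in alveolar macrophages, 1.21 (1.17 to 1.26) in interstitial macrophages and 1.23 (1.19 to 1.27) in type 1 conventional dendritic cells. Of the 12, Ier3 was past 2-fold in monocytes, at 1013 against 369 CPM, ratio 2.75 (2.55 to 2.96) in classical and 296 against 72.9 CPM, ratio 4.06 (3.51 to 4.72) in nonclassical monocytes. By cluster, the summed level and the Nr4a1 level were high and low together among type 1 conventional dendritic cells: the Timd4-led cluster summed 20702 and 16033 CPM and the Septin3-led cluster 1233 and 1998 CPM. The WT-labelled neutrophils summed 21422 CPM, and the 9 cells under the GFI1 KO label 4227 CPM.

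**Figure D4:**
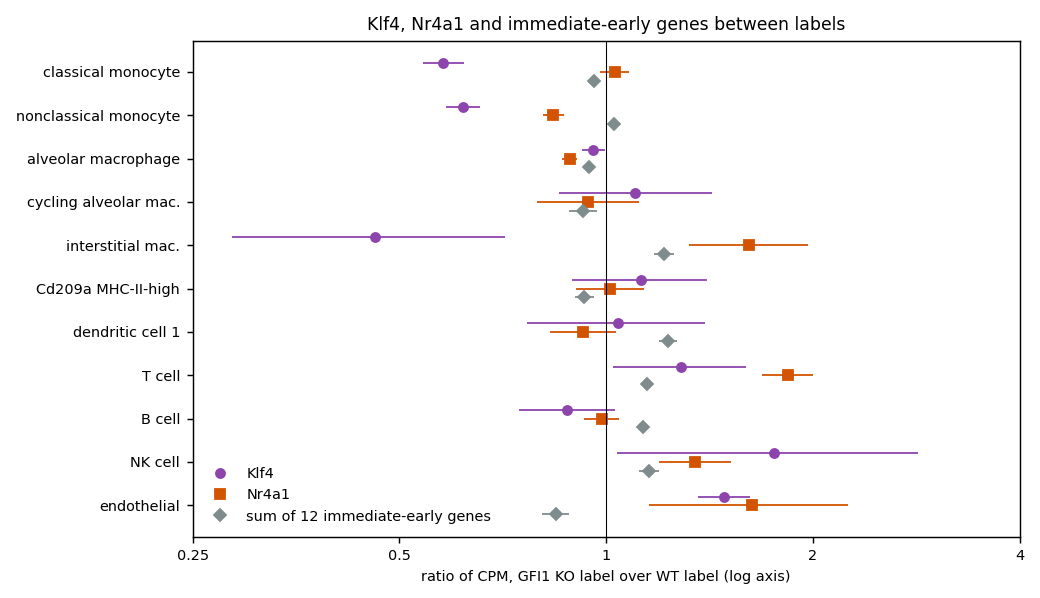
Ratio of CPM, GFI1 KO label over WT label (log axis), of Klf4, Nr4a1 and the sum of 12 immediate-early genes in the 7 myeloid classes compared and in T, B, NK and endothelial cells; bars are 95% counting intervals. Klf4 lies left of 1 in both monocyte classes while the immediate-early sum of each class lies near 1, which in classical monocytes pools a cluster at 9808 and 13995.5 CPM with a cluster at 10124 and 8962 CPM, and in endothelial cells Klf4 lies right of 1.

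Shares of cells with a UMI were read after thinning each cell to 1500 UMIs, since depth differed between labels and classes. At that depth Klf4 was seen in 46.5% (42.7 to 50.4) of nonclassical monocytes in the GFI1 KO library and 59.8% (55.3 to 64.2) in the WT library, against 84.1% and 88.0% before thinning. In classical monocytes the shares were 29.7% (28.0 to 31.4) and 46.1% (40.1 to 52.3). T cells gave 5.09% and 4.66% for Klf4, at median depths of 3926 and 4004 UMIs. Cebpe was seen in 3.26% (2.46 to 4.22) of granule-gene-led cells and 1.80% (1.34 to 2.36) of classical monocytes under the GFI1 KO label, and in 1.83% (1.17 to 2.71) of WT-labelled neutrophils, whose median depth of 2806 UMIs was the lowest of the myeloid classes; before thinning these shares were 18.2%, 11.2% and 3.73%, and no T cell had a UMI. Irf8 was seen in 96.8% (92.0 to 99.1) of plasmacytoid and 81.3% (74.6 to 86.8) of type 1 conventional dendritic cells under the WT label, against 0.972% of T cells. Spi1 was seen in 77.0% and 71.8% of nonclassical monocytes, 72.7% of WT-labelled neutrophils and 2.35% and 0.486% of T cells.

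Relatives and partners of the 8 genes were read from lists chosen with the design. The shares of all genes past 2-fold were 11.3% in classical monocytes, 4.38% in nonclassical monocytes and 4.88% in alveolar macrophages. Counts are set beside these shares and are not read as a result about a list. Ratios of these relatives, partners and other listed factors were not split by cluster. The clusters that made up classical monocytes and Cd209a MHC-II-high cells differed in share between the labels. Of 2 NR4A relatives, both were lower past 2-fold in alveolar macrophages: Nr4a2 at 22.7 against 58.4 CPM, ratio 0.388 (0.354 to 0.424), and Nr4a3 at 71.9 against 152 CPM, ratio 0.472 (0.449 to 0.497). Nr4a3 was also lower in classical monocytes, 50.8 against 114 CPM, ratio 0.446 (0.387 to 0.517), and in Cd209a MHC-II-high cells, 259.7 against 1002 CPM, ratio 0.259 (0.215 to 0.311). None of the 3 C/EBP relatives (Cebpg, Cebpz and Ddit3) was past 2-fold in either monocyte class or in alveolar macrophages. Of 8 Krüppel-like relatives, 1 was lower in classical monocytes, Klf16, and none was past 2-fold in nonclassical monocytes or alveolar macrophages; Klf2, which like Klf4 marks monocytes and endothelium, had 648 against 521 CPM, ratio 1.24 (1.17 to 1.33) in classical and 1089 against 1126 CPM, ratio 0.967 (0.925 to 1.01) in nonclassical monocytes.

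Of 10 interferon regulatory factors and BATF partners counted in classical monocytes 1 was higher (Batf2) and 1 lower (Irf7), beside 11.3% of all genes. Of 9 in nonclassical monocytes 1 was lower (Irf1), beside 4.38%, and of 10 in alveolar macrophages 1 was lower (Irf4), beside 4.88%. Irf7, which drives interferon responses, read 134 against 357 CPM, ratio 0.375 (0.345 to 0.407) in classical monocytes and 62.8 against 11.1 CPM, ratio 5.69 (3.21 to 10.2) in Cd209a MHC-II-high cells. Both values pool unlike clusters. The Ifit-led cluster held 431 of 2792 classical monocytes under the GFI1 KO label and 198 of 273 under the WT label. The Cd7-led cluster held 33 of 47 and 46 of 211 Cd209a MHC-II-high cells. Irf1 was lower in nonclassical monocytes, at 109 against 269.5 CPM, ratio 0.403 (0.360 to 0.450). Irf4, a factor of alternatively activated macrophages and dendritic cells, read 2.60 against 9.35 CPM, ratio 0.278 (0.211 to 0.360) in alveolar macrophages. Of the Ets relatives of PU.1, 1 of 8 was lower in classical monocytes, none of 8 passed in nonclassical monocytes and none of 7 in alveolar macrophages, beside the same shares. The 1 gene was Spic, a factor of iron-recycling macrophages, at 0.497 against 10.9 CPM, ratio 0.0457 (0.0210 to 0.0956), from 13 and 21 UMIs. Etv3 read 360.3 against 997 CPM, ratio 0.362 (0.308 to 0.422) in Cd209a MHC-II-high cells. In type 1 conventional dendritic cells Ets1 had no UMI under the GFI1 KO label, in 48 cells, against 46 UMIs (23.7 CPM) under the WT label. The summed 7 NK cell markers in that class were 11.1 and 75.9 CPM and the summed 8 T cell markers 26.7 and 38.7 CPM. Their part in the Ets1 value was not tested.

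Of 21 other myeloid fate factors counted, 1 was higher (Gfi1, with 0 UMIs under the WT label) and 2 lower (Maf and Egr2) in classical monocytes, beside 11.3% of all genes. In nonclassical monocytes 1 of 21 was higher (Myc) and 1 lower (Maf), beside 4.38%. These counts are not read as a result about the list. Maf, a macrophage factor, was lower in classical monocytes, 59.0 against 127 CPM, ratio 0.465 (0.406 to 0.535), and nonclassical monocytes, 24.1 against 49.1 CPM, ratio 0.492 (0.382 to 0.632), and higher in Cd209a MHC-II-high cells, 52.4 against 12 CPM, ratio 4.37 (2.42 to 7.88). Bhlhe40 and Nr1h3 were higher in interstitial macrophages, 192 against 72.2 CPM, ratio 2.66 (1.72 to 4.04) and 64.2 against 23.5 CPM, ratio 2.73 (1.22 to 5.72), and Nr4a2 and Runx3 lower, 40.8 against 101 CPM, ratio 0.404 (0.159 to 0.860) and 52.5 against 119 CPM, ratio 0.440 (0.197 to 0.862). In type 1 conventional dendritic cells Pparg and Runx2 were lower, each from 1 UMI under the GFI1 KO label, with ratios of 0.123 (0.00303 to 0.732) and 0.143 (0.00352 to 0.863), and Zeb2 was at 0.439 (0.137 to 1.10) from 5 UMIs. Myc read 2.11 (0.941 to 5.34) in nonclassical monocytes, from 29 and 8 UMIs. The intervals of Zeb2 and Myc include 1. Gata2 had 0 and 30 UMIs in alveolar macrophages. Gfi1 itself was higher in alveolar macrophages under the GFI1 KO label, at 1.36 against 0.171 CPM, ratio 7.92 (3.61 to 19.8) from 35 and 8 UMIs. Classical monocytes held 34 Gfi1 UMIs among 26168942 UMIs under that label and 0 among 1931654 under the WT label. The limit that 3 counts allow in the smaller WT total lies above the GFI1 KO level, so this Gfi1 call says little.

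Of 14 myeloid receptor and surface genes, Ly6c2 was lower past 2-fold in classical monocytes, Cd14 and Ccr2 were higher and Ly6c2 lower in nonclassical monocytes, and none passed in alveolar macrophages. The shares of all genes past 2-fold there were 11.3%, 4.38% and 4.88%. Csf1r, the receptor that monocytes and macrophages need and a known PU.1 target, stood at 661 against 686 CPM, ratio 0.963 (0.911 to 1.02) in classical and 907 against 943 CPM, ratio 0.962 (0.917 to 1.01) in nonclassical monocytes. Granule-gene-led cells held 413 CPM of Csf1r and 173 CPM of Csf3r, the receptor of granulocyte growth factor, where WT-labelled neutrophils held 96.9 and 2552 CPM.

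The levels of the 8 genes across cell types were also set against all others. Over the 13 pairs of a class and a label with at least 100 cells, the Pearson correlation of log2(CPM + 1) was computed for 9038 genes. The closest genes were Vamp4 for Spi1 (r = 0.963), Cd151 for Cebpa (0.961), Fgd4 for Cebpb (0.968), Tcn2 for Cebpd (0.942), Slc28a2 for Cebpe (0.952), Nudt16 for Irf8 (0.943), Elmo2 for Klf4 (0.955) and Atp2c1 for Nr4a1 (0.893). Next came Dgkg for Spi1, Glul and Hexa for Cebpa, Osm and Irak3 for Cebpb, Hgsnat and Cd14 for Cebpd, Mtus1 and Acpp for Cebpe, Rnf123 and Mark3 for Irf8, Gvin2 and Slc8a1 for Klf4, and Capzb and Inpp1 for Nr4a1. Among the 8 themselves, Cebpd and Cebpe were the closest pair (0.88), and Irf8 ran against Spi1 (-0.67) and Cebpb (-0.65). Pairs of 1 library share its depth and handling, so these values describe likeness only.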

How the data were processed

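Whole-lung single-cell suspensions were sequenced with a 10x 3′ kit and 18 antibody tags. The deposited files hold raw UMI counts per gene and cell, made by the authors with Cell Ranger 9.0.1 on GRCm39, per the labels and file headers; removal of doublets or free RNA was not stated. From these counts, 205 and 173 cells were removed for having fewer than 500 UMIs, fewer than 200 genes or a mitochondrial share above 20%, as the study's methods describe, and ribosomal, mitochondrial and Gm-named genes were dropped (9548 genes, holding 19.0% and 16.5% of UMIs). Counts were scaled to 10000 per cell, logged and scaled, and cells were clustered on 2000 variable genes (Leiden resolution 0.8, scanpy 1.11.5); the 8 genes and the listed related factors were kept out of the variable genes, and myeloid clusters were clustered again. Clusters were named from fixed marker lists. Scrublet called 346 and 1145 doublets, which were kept in the results and removed in an alternative.

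UMIs were summed per class and library and divided by the summed total (CPM). Levels carry exact Poisson, ratios exact conditional binomial and shares Clopper-Pearson 95% intervals (scipy 1.17.1). A level with no UMI is given by the limit that 3 counts allow. With 1 library per label there are no replicates, so nothing was tested between labels. A gene was called at 2-fold with at least 30 UMIs. Thinning drew 1500 UMIs per cell without replacement, leaving out shallower cells. The ratio intervals were tried on simulated Poisson counts, the model they assume, which says nothing of spread between cells or mice.

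The 8 genes and all lists were chosen with earlier results of these data known. Of the listed factors, up to 4 per class were named, by the interval bound nearer to 1 among those past 2-fold. For likeness, the 3 genes with the highest correlation to each of the 8 were named, among genes reaching 20 CPM. A few results are not reported here. Chosen after values were seen were the thresholds for naming clusters, the granule-gene-led class, the split of cycling cells, and the naming of Klf16, Klf2, Batf2, Egr2, Ier3, Lcn2, Ly6c2, Cd14, Ccr2, Csf1r, Csf3r, Nr4a3 in alveolar macrophages and Gfi1 in classical monocytes. Other clusterings, filters, totals, fold thresholds and depths were tried as alternatives.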

Additional observations from a re-analysis of the deposited data

Results flagged for a closer look

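For 3 of the 8 genes the ratio between labels ran in opposite directions in a pair of classes, with intervals on either side of 1. With 1 library per label the difference between classes was not tested. Cebpb had a ratio of 1.57 (GFI1 KO label over WT label) in Cd209a MHC-II-high cells and 0.967 in alveolar macrophages, a difference from 1 that is small beside the first and rests on large counts; the first was 1.09 with mitochondrial UMIs of up to 10%. For Cebpd it was 1.44 in nonclassical monocytes and 0.424 in cycling alveolar macrophages, the latter from 20 and 44 UMIs. The latter was 0.963 at resolution 1.2. For Nr4a1 it was 1.61 in interstitial macrophages and 0.838 in nonclassical monocytes. The former compares 21 GFI1 KO with 152 WT cells, which also differed in markers of other cells. It lay between 1.43 and 1.82 in the settings that could compare the class, and several could not. The summed 12 immediate-early genes had a ratio of 1.21 (1.17 to 1.26) there, and their part was not tested.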

How the results depend on the processing

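No paired analysis was possible because the labels share fewer than 2 replicate numbers, and no library could be left out. Of 493 single log2 ratios under 15 alternatives, 401 stayed within their counting interval, 91 moved beyond it and 1 changed direction past 2-fold: Klf4 in interstitial macrophages, 0.28 on the log2 scale when cells were classed by marker level. In 59 cases the ratio crossed 1, and in 18 it moved by over 1.5 times. The number of the 8 genes past 2-fold in classical monocytes was 2 in place of 1 (Klf4 joined Cebpe) at resolution 1.2, with each library clustered on its own, with the 8 genes among the variable genes, at up to 10% mitochondrial UMIs, by marker level, at 1.5-fold, with granule-gene-led cells added and in the interferon-gene-led cluster alone. In nonclassical monocytes it was 0 with the 8 genes among the variable genes and at 100 UMIs or more, and 2 at 1.5-fold. In cycling alveolar macrophages it was 0 at resolution 1.2, at 100 UMIs or more and at 3-fold. In interstitial macrophages it was 0 at resolution 0.5, with the 8 genes among the variable genes, with a mean over cells and at 3-fold, and 2 by marker level and at 1.5-fold. In Cd209a MHC-II-high cells it was 0 at resolution 1.2, without called doublets and at 3-fold, 2 by marker level and 3 at 1.5-fold. Without called doublets that class held 158 GFI1 KO and 410 WT cells, against 47 and 211 in the reported setting. In type 1 conventional dendritic cells it was 1 at 1.5-fold, and in alveolar macrophages it was 0 under all alternatives run. The cause of these moves was not tested. Cycling alveolar macrophages could not be compared under 7 alternatives, interstitial macrophages under 5, and Cd209a MHC-II-high cells and type 1 conventional dendritic cells with each library clustered on its own. No granule-gene-led class was named at resolution 0.5 or 1.2, or with each library clustered on its own. None was named with the 8 genes among the variable genes, at up to 10% mitochondrial UMIs or at 2000 UMIs or more. It held 859 GFI1 KO and 1 WT cells without called doublets, and 398 and 14 by marker level. Shares of cells moved with depth: 100 of 112 left their interval without thinning and 81 when cells were thinned to a larger number of UMIs. The class with the highest level of each gene was the same in 16 of 16 cases with a mean over cells. The shared barcodes, the single clusters and the added granule-gene-led cells were chosen as alternatives after seeing the data. Cebpe, at 7 UMIs in each WT-labelled monocyte class, is limited by depth.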

Other observations

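Outside the myeloid classes, several of the 8 genes also read higher under the GFI1 KO label, among them Spi1, as described above. The part of free RNA in the values outside the myeloid classes was not tested. Nr4a1 stood at 343 against 187 CPM in T cells, a ratio of 1.84 (1.68 to 2.0), at 319 against 237 CPM in NK cells, 1.35 (1.19 to 1.52), and at 99.6 against 61.0 CPM in endothelial cells, 1.63 (1.16 to 2.25), while B cells, with 472 and 479 CPM, were level at 0.985 (0.929 to 1.04). Klf4, a factor that endothelial cells use to keep a quiescent, flow-exposed state, was 1.49 (1.36 to 1.62) times as high in endothelial cells, the opposite direction to both monocyte classes. That ratio compares 114 GFI1 KO with 2253 WT endothelial cells. Klf4 also read higher in T cells, 1.28 (1.02 to 1.60), and NK cells, 1.75 (1.04 to 2.84), while B cells had 0.878 (0.747 to 1.03).

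A cluster of 78 cells, all in the WT library, carried all 10 neutrophil markers and all 8 nonclassical monocyte markers and was given no name. Scrublet called 0% of it as doublets. Its median depth was 9236 UMIs, against 2806 in WT-labelled neutrophils and 5466.5 in WT-labelled nonclassical monocytes. Whether the cluster was made of doublets that Scrublet missed was not tested. In it, Cebpb stood at 4478 CPM, Nr4a1 at 1717 CPM, Spi1 at 975 CPM, Klf4 at 509.9 CPM and Irf8 at 45.4 CPM, so that Cebpb, Nr4a1, Klf4 and Irf8 lay between the WT-labelled neutrophil and nonclassical monocyte levels. Of the secondary granule genes, Camp had no UMI and Ngp 4.12 CPM.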
